A study of Mus musculus with 8 samples.

Results

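The replication-dependent histone genes make the bulk histone proteins that package newly copied DNA: the linker histone H1 and the core histones H2A, H2B, H3 and H4. They were taken as all genes with a GENCODE M21 symbol starting Hist1h, Hist2h, Hist3h or Hist4h and at least 20 counts summed over the 8 libraries, which gave 63 members of 41214 counted genes. The files held 67 genes with such symbols of 70 in the annotation. Of the members, 6 encode H1, 17 H2A, 16 H2B, 11 H3 and 13 H4, and 3 carry a pseudogene biotype. The count minimum fell between Hist1h2ba with 20 counts and Hist2h2aa2 with 23 on the inside, and Hist1h2aa with 19, Hist2h2aa1 with 14 and Hist1h2ap with 9 on the outside.

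Whole bone marrow of 8 C57Bl6 mice altered at Gfi1, a zinc-finger repressor that limits myeloid output, was sequenced after selection of polyadenylated RNA. All mice carried a changed Gfi1 locus, so that no wild-type marrow entered the comparisons. In the KD (knockdown) mice the mouse gene is replaced by a human GFI1 cDNA that is expressed at a low level because of an antisense neomycin cassette, and the KO (knockout) mice lack Gfi1. The groups were young KD mice of 39 and 42 days, young KO mice of 48 and 44 days, old KO mice of 158 and 101 days without leukaemia, and sick KD mice of 187 and 78 days whose leukaemia status is labelled AML, while the study describes the disease of such mice as a myeloproliferative neoplasm. Mouse Gfi1 itself had 6.17 and 7.03 TMM-normalized CPM (its share of the library's counts on a fixed scale, after the trimmed-mean correction for library makeup) in young KD, 5.49 and 7.15 in sick KD, 14 and 14.4 in young KO, and 13.3 and 29.7 in old KO. The libraries labelled KO thus held more counts on the gene than those labelled KD, but a count over the whole gene does not resolve the deleted part, and the human cDNA is a different sequence, so it is no check of the labels. The libraries held 26642067 to 42679114 counts on genes.

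Most mRNAs end in a poly(A) tail, but replication-dependent histone mRNAs end in a short stem-loop. The stem-loop is bound by SLBP (stem-loop binding protein), and the U7 small nuclear RNP directs the cut behind it. These mRNAs build up in S phase and are degraded when DNA synthesis stops. Variants such as H2A.Z (H2afz) and H3.3 (H3f3a and H3f3b) come instead from genes with introns and ordinary poly(A) tails, and are made throughout the cell cycle. A library selected on poly(A) therefore recovers replication-dependent histone mRNA only in part.

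The members lie in 4 clusters on GRCm38. Hist1 holds 52 members on chromosome 13, of which 22 lie at chr13:21715763-22043676 and 29 at chr13:23531050-23934156, and Hist1h2al lies apart at chr13:51202727-51203065. Hist2 holds 7 members at chr3:96219865-96269141, Hist3 holds 3 at chr11:58948920-58956830, and Hist4 consists of Hist4h4 at chr6:136801553-136804415 on the minus strand.

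The stem-loop was searched in the annotated transcripts as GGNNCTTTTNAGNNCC on the sense strand, and 39 of the 63 members held it, against 81 of all 40254 counted genes with a transcript (0.201%). The stem-loop forms are shown because they are the 3′ end that sets these mRNAs apart, with the paired stem in capitals and the loop in lower case:
21 members, among them Hist1h1c, Hist1h2bj and Hist3h2a: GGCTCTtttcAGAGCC
6 members, among them Hist1h2bb and Hist1h3f: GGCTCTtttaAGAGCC
Hist2h2ac: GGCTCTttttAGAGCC
7 members, among them Hist1h4d and Hist4h4: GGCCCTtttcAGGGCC
Hist1h4b and Hist1h4j: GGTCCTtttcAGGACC
Hist1h4i and Hist2h4: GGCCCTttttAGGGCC
H2afx, which is no member: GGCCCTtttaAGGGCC
All 11 H4 members with a stem-loop had a stem that began GGCC or GGTC, and the 28 members that began GGCT encoded H1, H2A, H2B or H3. For the 24 members without a match, this says only that these letters are not in the annotated transcripts. H2afx, counted among the poly(A) variants in this comparison, also carries a stem-loop, with 822 transcript bases after it in the annotation, whereas H2afz, H3f3a and H3f3b do not. AATAAA, the usual poly(A) signal, stood within the last 50 bases of an annotated transcript in 14 members, including Hist1h1c, Hist1h1t, Hist2h2be, Hist3h2a, Hist3h2ba and Hist4h4.

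Promoter windows from RefSeq (GRCm38.p6, 250 bases before to 50 after the start) were matched for 55 members. CCAAT or its reverse ATTGG stood in 46 of them (83.6%), against 41.1% of 27025 genes, and the match was in every H1, H2A, H2B and H3 window but in 3 of 12 H4 windows. TATAAA or TTTATA stood in 33 (60%), against 15.7% of all genes. The octamer ATTTGCAT or its reverse ATGCAAAT stood in 11 (20%), 6 of them H2A and 5 H2B, against 1.97% of all genes. The 250 bases before the start of an H2B gene that rose in the sick KD libraries and of one that did not are shown, with the matches in capitals:
Hist1h2bb, chr13:23746484-23746733, plus strand: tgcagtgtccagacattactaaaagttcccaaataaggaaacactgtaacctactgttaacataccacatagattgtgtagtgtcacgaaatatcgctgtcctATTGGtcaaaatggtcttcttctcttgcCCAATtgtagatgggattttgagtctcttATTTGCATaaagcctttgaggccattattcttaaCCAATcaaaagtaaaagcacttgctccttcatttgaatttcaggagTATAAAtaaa
Hist3h2ba, chr11:58948661-58948910, plus strand: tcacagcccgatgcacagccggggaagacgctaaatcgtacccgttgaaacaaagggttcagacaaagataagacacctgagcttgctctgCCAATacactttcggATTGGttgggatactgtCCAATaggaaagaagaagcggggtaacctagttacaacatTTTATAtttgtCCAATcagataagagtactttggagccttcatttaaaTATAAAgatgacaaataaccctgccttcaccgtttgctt
In Hist1h2bb, the most highly counted H2B gene with all 3 motifs, ATTGG started at position -147 from the annotated start, CCAAT at -119 and -56, the octamer at -90 and TATAAA at -10. Hist3h2ba held CCAAT at -159, -127 and -76, ATTGG at -144, TTTATA at -87 and TATAAA at -39, and no octamer. None of these matches overlapped another. The octamer did not separate members that rose from those that did not: Hist1h2bf, Hist1h2bj, Hist1h2bl, Hist1h2bn and Hist1h2bp rose and lack it in this window, and Hist3h2a holds it and was not called.

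The members were about 2.5 times as abundant in the sick KD libraries as in all others. Their summed TMM-normalized CPM was 16052 and 14554 in the young KD libraries, 15904 and 15005 in young KO, 15500 and 15892 in old KO, and 35987 and 43465 in sick KD. Both sick KD libraries stood apart from the 6 others, which overlapped one another. The group means were 15303 ± 1059 in young KD, 15454 ± 635.3 in young KO, 15696 ± 276.9 in old KO and 39726 ± 5288 in sick KD (SD, n = 2 each), a ratio of 2.60 between sick and young KD and of 2.53 between sick KD and old KO. With 2 libraries against 2 an exact two-sided permutation test cannot go below p = 0.333, so the sum itself was not tested. Members took 1.51% to 1.65% of all gene counts in the 6 other libraries and 3.35% and 4.05% in sick KD.

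**Figure D1:**
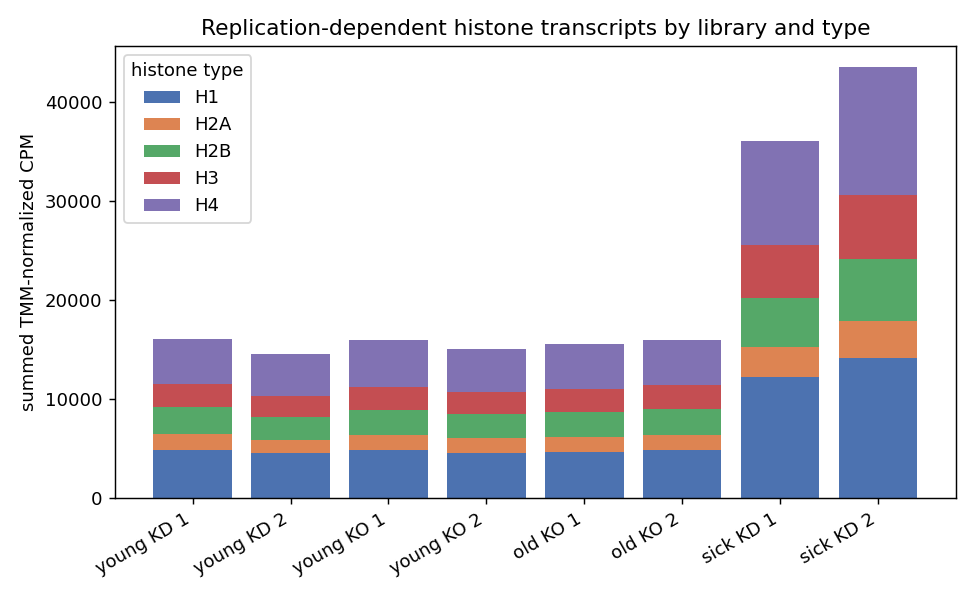
Summed TMM-normalized CPM of the members (vertical axis) in each of the 8 libraries, stacked by histone type. The 2 sick KD bars reach 35987 and 43465, and the 6 others lie between 14554 and 16052.

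Every histone type had a higher sum in both sick KD libraries than in any other. H1 transcripts summed to 12207 and 14084 CPM in sick KD against 4503 to 4860 elsewhere. H4 transcripts summed to 10502 and 12909 against 4282 to 4737. H3 summed to 5321 and 6479 against 2159 to 2380, H2B to 4938 and 6219 against 2260 to 2719, and H2A to 3019 and 3773 against 1350 to 1608. The ratio of the sick to the young KD mean was 2.81 for H1, 2.66 for H4, 2.62 for H3, 2.30 for H2A and 2.24 for H2B, as a description of the sums. The makeup of the histone pool moved little: H1 was 33.9% and 32.4% of it in sick KD and 30.04% to 30.9% elsewhere, H2B 13.7% and 14.3% against 15.5% to 16.9%, and H3 14.6% to 15.1% in all 8.

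By cluster, Hist1 carried 93.3% to 94.0% of the sum in every library. Hist2 summed to 1411 and 1786 CPM in sick KD against 627.2 to 721.9 elsewhere, and Hist4h4, the whole Hist4 cluster, had 704.6 and 731.1 CPM against 235.2 to 255.6. Hist3 behaved differently, with 85.4 and 87.5 CPM in sick KD against 60.4 to 82.9 elsewhere, a ratio of 1.19 to young KD. Within Hist3, Hist3h2bb-ps was higher in sick KD and Hist3h2a and Hist3h2ba were not called.

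Against young KD marrow, sick KD marrow had 53 of 58 tested members higher and 0 lower by edgeR's quasi-likelihood test at an adjusted p under 0.05 (0 lower at an unadjusted p under 0.05 and 0 by DESeq2, a second count model, which called 53 higher). Over all 14656 genes tested 9.45% were higher and 11.4% lower, 20.9% in all, and DESeq2 called 23.1%. The median log2 fold change of the members was 1.30, a ratio of 2.46, beside 0.01 over all genes. All 13 H4 and all 11 H3 members rose, with medians of 1.38 and 1.41. Of the tested H2A members 12 of 14 rose (median 1.22), of H2B 12 of 14 (median 1.06) and of H1 5 of 6 (median 1.52). Both sick KD libraries lay above all 6 others in 55 of the 58 members (94.8%), against 24.6% of 15102 genes, and the 3 exceptions were Hist1h1t, Hist3h2a and Hist3h2ba.

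**Figure D2:**
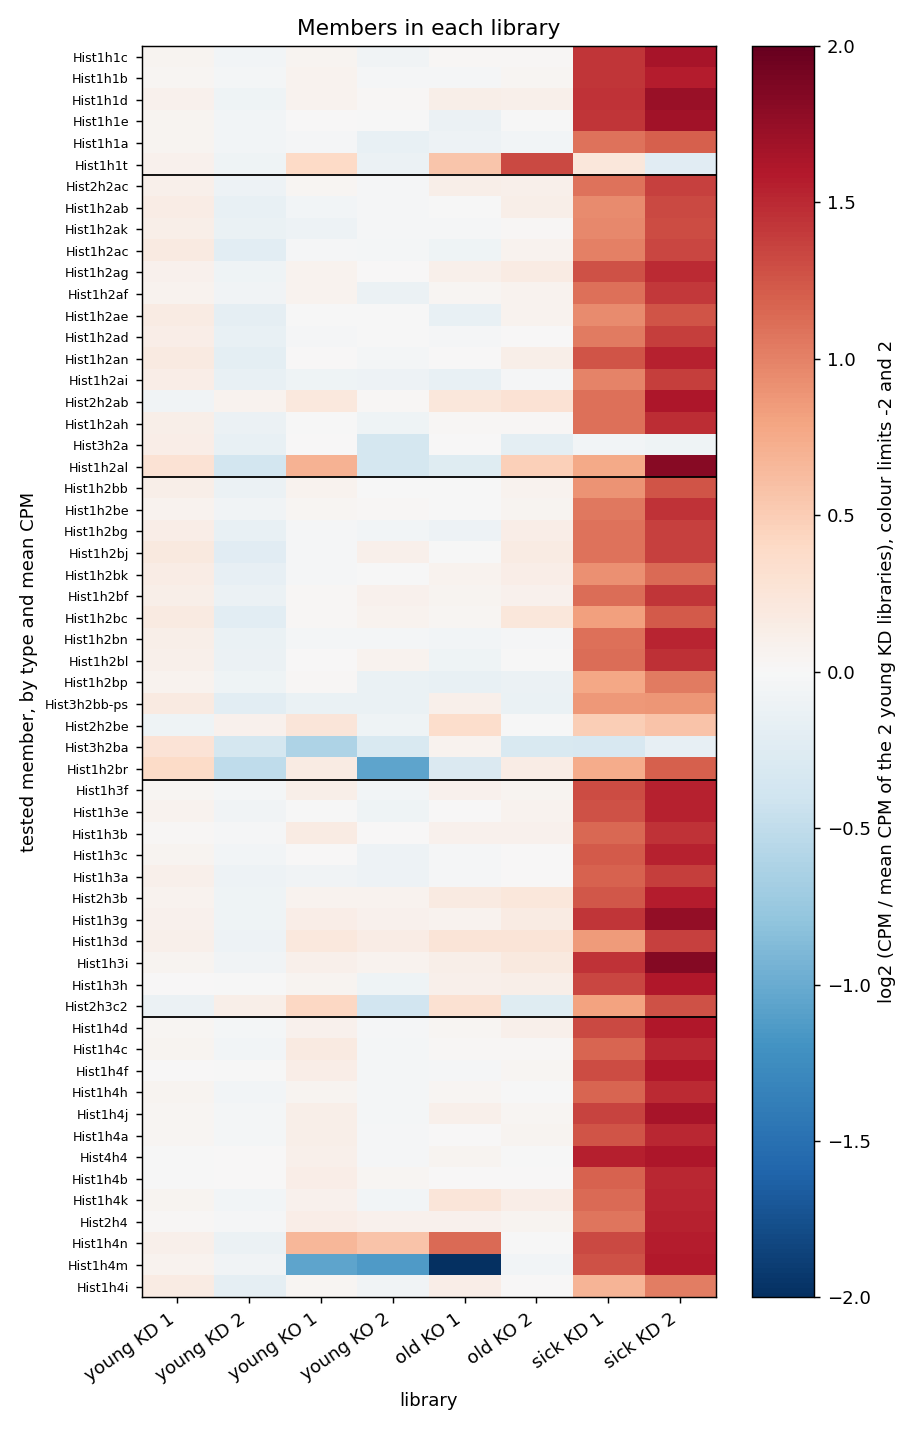
Each row is 1 of the 58 tested members, by type and falling mean CPM, and each column a library; colour gives log2 of the CPM over the mean of the 2 young KD libraries, with limits at -2 and 2. Both sick KD columns are red in nearly every row, and Hist1h4m and Hist1h4n stand out in the KO columns, with the old KO 1 value of Hist1h4m beyond the lower limit.

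Linker histones bind the DNA between nucleosomes, and 5 of the 6 H1 members rose. Hist1h1c (H1.2) had 1311 and 1215 CPM in young KD, 1312 and 1201 in young KO, 1277 and 1289 in old KO, and 3404 and 3971 in sick KD. It rose by 1.54 ± 0.13 (log2, SE) from young to sick KD (adjusted p = 0.0037). Hist1h1b (H1.5) had 1112 and 1060 CPM in young KD, 1145 and 1067 in young KO, 1068 and 1119 in old KO, and 2921 and 3225 in sick KD, a log2 fold change of 1.49 ± 0.12 (adjusted p = 0.0033). For both genes the sick KD libraries lay far above the 6 others, which overlapped. Hist1h1d (H1.3) went from 988.1 and 873.8 CPM in young KD to 2522 and 3069 in sick KD (1.58 ± 0.15), and Hist1h1e (H1.4) from 700.5 and 654.9 to 1829 and 2160 (1.55 ± 0.13). Hist1h1t, the testis-specific H1 that is active in male germ cells, was nearly absent at 0.82 to 2.43 CPM in all libraries, and its highest value was in an old KO library, not in sick KD (0.01 ± 0.33, adjusted p = 0.99).

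Among the H4 genes, Hist1h4d had 1007 and 949.6 CPM in young KD, 1033 and 962.3 in young KO, 1004 and 1048 in old KO, and 2431 and 2956 in sick KD (1.45 ± 0.14, adjusted p = 0.0042). All H4 genes encode the same protein in textbook knowledge, so these differ in which copy was read and not in product. Hist1h4c, Hist1h4f and Hist1h4h rose by 1.34 ± 0.15, 1.45 ± 0.14 and 1.33 ± 0.15. Hist4h4, which stands alone on chromosome 6, had 237.9 and 240.2 CPM in young KD, 255.6 and 235.2 in young KO, 249.3 and 238.7 in old KO, and 704.6 and 731.1 in sick KD. Its rise of 1.58 ± 0.11 (adjusted p = 0.0026) was as large as those of genes within Hist1, on another chromosome.

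All H3 members rose, and Hist1h3i and Hist1h3g had the largest log2 fold changes of all members. Hist1h3i had 48.4 and 44.3 CPM in young KD, 49.9 and 48.7 in young KO, 50.3 and 52.8 in old KO, and 126.0 and 165.5 in sick KD (1.65 ± 0.16, adjusted p = 0.0041). Hist1h3g had 83.9 and 74.0 CPM in young KD, 86.2 and 83.7 in young KO, 82.8 and 88.1 in old KO, and 212.8 and 268.0 in sick KD (1.60 ± 0.15, adjusted p = 0.0041). In both genes the 6 other libraries lay close together and the 2 sick KD libraries differed from each other more than those did. The most abundant H3 members, Hist1h3f, Hist1h3e, Hist1h3b and Hist1h3c, rose by 1.42 ± 0.13, 1.41 ± 0.14, 1.30 ± 0.14 and 1.39 ± 0.14.

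H2A and H2B pair as dimers that flank the H3 and H4 core of the nucleosome, and their members had lower medians than those of H3 and H4. Hist1h2bb had 631.2 and 537.0 CPM in young KD, 615.1 and 580.6 in young KO, 578.9 and 611.5 in old KO, and 1085 and 1403 in sick KD (1.08 ± 0.17, adjusted p = 0.011). Hist1h2be, Hist1h2bg and Hist1h2bj rose by 1.26 ± 0.16, 1.23 ± 0.16 and 1.22 ± 0.18. Hist2h2ac had 322.3 and 280.4 CPM in young KD, 310.7 and 295.4 in young KO, 328.2 and 323.0 in old KO, and 640.2 and 775.8 in sick KD (1.23 ± 0.15). Hist1h2ab, Hist1h2ak and Hist1h2ac rose by 1.14 ± 0.17, 1.14 ± 0.16 and 1.17 ± 0.18, and Hist3h2bb-ps, a pseudogene and the most abundant Hist3 member, by 0.87 ± 0.15.

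The members that missed the threshold, and Hist2h2be, were chosen for naming after their values were seen. Hist3h2a had 27.7 and 23.0 CPM in young KD, 25.6 and 19.9 in young KO, 25.6 and 22.1 in old KO, and 24.4 and 23.8 in sick KD (-0.08 ± 0.14, adjusted p = 0.70). Hist3h2ba had 29.3 and 19.1 CPM in young KD, 15.8 and 19.6 in young KO, 25.3 and 19.7 in old KO, and 19.4 and 21.5 in sick KD (-0.25 ± 0.21, adjusted p = 0.43). The sick KD values of both lay within the range of the others. Hist1h2al and Hist1h2br, with at most 1.96 CPM in any library, had 1.38 ± 0.47 and 0.97 ± 0.40 and missed the threshold, as did Hist1h1t. Hist2h2be passed with the smallest rise, 0.52 ± 0.12 (adjusted p = 0.032), from 20.9 and 23.6 CPM in young KD to 31.2 and 32.9 in sick KD. Hist2h2be, Hist3h2a, Hist3h2ba, Hist1h1t and Hist1h2br all have AATAAA near an annotated transcript end, but so do Hist1h1c, Hist1h2be, Hist1h4j and Hist4h4, which rose by over 1.2. Of the tested members with AATAAA there, 9 of 13 rose, and of those without it 44 of 45.

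The sick KD libraries were next set against the other older group. Old KO marrow, of an age range within that of the sick KD mice, had 49 of 58 members lower than sick KD and 0 higher by edgeR (1 higher at an unadjusted p under 0.05 and 0 by DESeq2, which called 50 lower). Over all 14470 genes 8.22% were lower and 9.93% higher, 18.1% in all, and DESeq2 called 21.1%. The median over members was -1.22, a 2.33-fold lower level, and over all genes -0.00. Among the called members Hist1h1e had the largest value at -1.62 ± 0.16 (adjusted p = 0.0042), followed by Hist4h4 at -1.55 ± 0.14, Hist1h1c at -1.52 ± 0.16, Hist1h3i at -1.49 ± 0.15 and Hist1h3g at -1.49 ± 0.15. The members that missed the threshold were Hist1h1t, Hist1h2al, Hist1h2br, Hist2h2be, Hist2h3c2, Hist3h2a, Hist3h2ba, Hist1h4m and Hist1h4n. The sick KD libraries enter both this comparison and that with young KD, so the lists share samples.

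The young groups differed in 1 of 58 members. Hist1h4m was lower in young KO than in young KD by 1.10 on the log2 scale (edgeR adjusted p = 0.033), where 0.0404% of 14839 genes were called, 6 genes in all, 0.0202% in each direction (0.182% by DESeq2). The call was lost when any 1 of the 4 mice was left out (adjusted p = 0.059 to 0.32), while the log2 fold change stayed between -1.17 and -1.02. The median over members was 0.02. Old KO and young KO marrow differed in 0 of 58 members by edgeR, with 0 at an unadjusted p under 0.05 and 0 by DESeq2, while 0.929% of 14847 genes passed edgeR's test (0.323% higher and 0.606% lower) and 2.58% that of DESeq2, and the members' median was 0.04. The largest value was that of Hist1h1t, 0.83 ± 0.37 (adjusted p = 0.62).

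**Figure D3:**
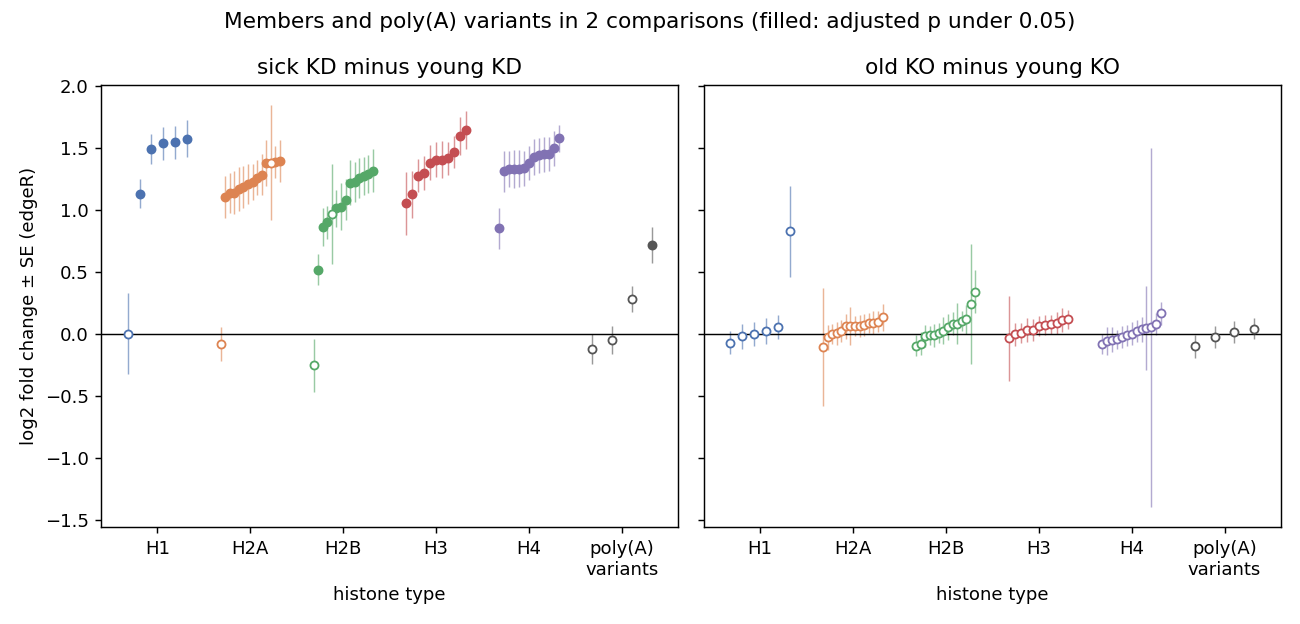
Log2 fold change ± SE of each tested member by histone type, and of the 4 poly(A) variants, between sick and young KD (left) and between old and young KO (right); filled points passed an adjusted p under 0.05. On the left 53 of 58 members are filled and above 0, on the right none is filled, and the long bar on the right is Hist1h4m.

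The difference between the old KO and sick KD groups was itself different from that between the young groups. In 1 fit over all 8 libraries the contrast (old KO minus sick KD) minus (young KO minus young KD) was below 0 in 47 of 58 members and above 0 in 0 by edgeR, with 3.11% of 15102 genes called lower and 4.32% higher, 7.43% in all (12.9% by DESeq2). DESeq2 called 49 lower and 0 higher, and 0 were above 0 at an unadjusted p under 0.05. The members' median was -1.27. Hist1h1e (-1.62 ± 0.16), Hist1h3g (-1.60 ± 0.18), Hist4h4 (-1.60 ± 0.13), Hist1h3i (-1.59 ± 0.18) and Hist1h1d (-1.52 ± 0.17) had the largest values. Leaving out 1 mouse lowered the count to 30 without old KO 1, 24 without young KO 1, 25 without young KO 2 and 28 without young KD 1, against 47 with all mice. Age, illness and genotype are joined in these groups: the sick mice are all KD and the healthy old mice all KO, so these cannot be told apart.

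The Hist1h4m call needs the sequence beside it. Hist1h4m (chr13:21811746-21812147, plus strand) and Hist1h4n (chr13:21831767-21832196, minus strand) are H4 genes of the same cluster, and over the 402 bases compared their annotated transcripts differ at 1 position, G36A, counted from 1 at the 5′ end of the transcript and given with the Hist1h4m base first. The 30 bases at positions 22 to 51 are shown with that base in capitals:
Hist1h4m: acagttttgtcttcGtcatgtctggtcgtg
Hist1h4n: acagttttgtcttcAtcatgtctggtcgtg
The differing base lies just before the start codon, which begins at position 39. The annotated Hist1h4n transcript is 430 bases long and runs past the compared stretch. Reads that match both genes equally are left out by the counting: 10.2% of the 50-base windows of Hist1h4m and 14.4% of those of Hist1h4n occurred in no other annotated gene.

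Hist1h4m had 135.6 and 122.8 CPM in young KD, 62.1 and 58.8 in young KO, 0.63 and 124.3 in old KO, and 312.2 and 386.9 in sick KD. Hist1h4n had 125.0 and 107.1 CPM in young KD, 184.0 and 171.8 in young KO, 253.9 and 115.7 in old KO, and 289.7 and 345.1 in sick KD. Where one was low the other was high. Of the counts on both genes, Hist1h4m took 52.0% (exact 95% binomial interval 51.1% to 53.0%) and 53.4% (52.3% to 54.5%) in young KD, 51.9% (51.1% to 52.7%) and 52.9% (52.2% to 53.5%) in sick KD, 25.2% (24.4% to 26.1%) and 25.5% (24.5% to 26.5%) in young KO, and 0.249% (0.148% to 0.394%) and 51.8% (50.8% to 52.8%) in old KO. The intervals cover counting error only. The shares thus fell near 52%, near 25% and near 0, with both old KO mice far apart. The sum of the pair did not follow this split: 260.6 and 229.9 CPM in young KD, 246.1 and 230.6 in young KO, 254.5 and 240.1 in old KO, and 601.9 and 732.0 in sick KD. Fitted as 1 feature the pair differed by -0.04 ± 0.09 between young KO and young KD (adjusted p = 1.0), by 1.44 ± 0.14 between sick and young KD (adjusted p = 0.0047) and by -1.43 ± 0.16 between old KO and sick KD (adjusted p = 0.0048). Since most of their sequence is shared, a difference in either gene alone can be one of read placement or of transcript level, and these cannot be told apart here. What sets the share was not tested.

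**Figure D4:**
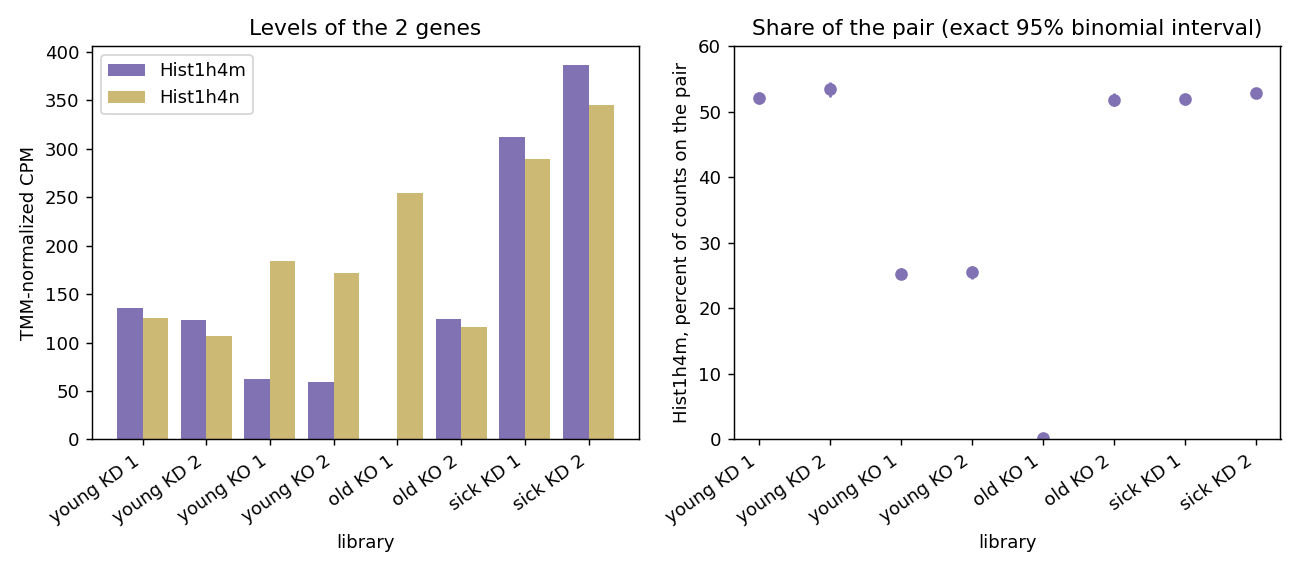
TMM-normalized CPM of Hist1h4m and Hist1h4n in each library (left, bars) and the percent of the pair's counts that lie on Hist1h4m with its exact 95% binomial interval (right). The share is near 52% in the 4 KD libraries and old KO 2, near 25% in both young KO libraries and 0.249% in old KO 1.

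Of the 4 poly(A) variants only H2afx passed the test between sick and young KD. H2afz had 323.7 and 338.2 CPM in young KD, 373.0 and 339.1 in young KO, 321.4 and 344.9 in old KO, and 405.2 and 403.6 in sick KD (0.28 ± 0.11, adjusted p = 0.10). Both sick KD values of H2afz lay above the 6 others, and edgeR called it higher with GC and length trends removed (0.30, adjusted p = 0.027). H3f3a lay between 428.8 and 471.3 CPM in all 8 libraries (-0.04 ± 0.11 from young to sick KD) and H3f3b between 516.2 and 604.3 (-0.12 ± 0.12). Neither gene separated the sick KD libraries from the others. H2afx, the DNA-damage variant that carries a stem-loop, had 466.1 and 420.0 CPM in young KD, 448.2 and 445.1 in young KO, 465.2 and 458.1 in old KO, and 654.3 and 811.5 in sick KD, and rose by 0.72 ± 0.14 (adjusted p = 0.021). The call was lost without young KD 1 (adjusted p = 0.079) or young KD 2 (adjusted p = 0.12). The members' sum was 8.40 to 8.82 times that of the 4 variants in the 6 other libraries, and 18.0 and 19.6 times in sick KD. Without H2afx the ratio was 11.1 to 12.0 and 26.7 and 31.0. Of the 10 other listed variant genes 7 were tested, and H2afv fell by 0.67 on the log2 scale from young to sick KD (adjusted p = 0.021), while the rest missed the threshold.

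Genes that act with the histones showed no rise from young to sick KD that passed edgeR's test. From a list of 35 genes of histone pre-mRNA processing and transcription, 32 were tested, and 0 rose and 8 fell from young to sick KD (4 higher at an unadjusted p under 0.05 and 1 by DESeq2), against 11.4% of all genes lower. Old KO marrow had 7 of these 32 genes higher than sick KD and 1 lower by edgeR. Over all genes 9.93% were higher and 8.22% lower in that comparison. Slbp had 181.6 and 155.5 CPM in young KD, 161.3 and 175.2 in young KO, 157.2 and 162.7 in old KO, and 129.4 and 120.3 in sick KD, the only values under 150. Its fall of 0.44 on the log2 scale had an adjusted p of 0.049. That p was 0.051 with TMM factors computed without histone, small RNA and mitochondrial genes, 0.067 with GC and length trends removed, and 0.056 to 0.40 with 1 mouse left out. Npat, the coactivator that recruits the transcription machinery to histone genes, had 58.1 and 58.6 CPM in young KD and 89.9 and 68.5 in sick KD (0.43 ± 0.15, adjusted p = 0.081), and passed in some alternatives, at an adjusted p of 0.015 without sick KD 2. Casp8ap2, Lsm10 and Lsm11, which join the processing complex, had values of 0.02 ± 0.16, 0.14 ± 0.13 and -0.61 ± 0.17, and none passed. Lsm11 was close to the threshold (adjusted p = 0.051), and was called lower by DESeq2 (adjusted p = 0.022), in 4 other settings and without sick KD 2 (adjusted p = 0.047) or young KD 2 (adjusted p = 0.025). Cpsf2, Srrt and Ncbp2, which act in cleavage of the transcript or with its cap, fell by 0.70, 0.85 and 0.62. The U7 RNA gene Rnu7 was listed at 0 in every library.

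Of 49 S phase and replication genes, 0 rose and 8 fell from young to sick KD by edgeR, with a median of -0.16 (1 higher at an unadjusted p under 0.05 and 0 by DESeq2). The 8 are 16.3% of the list, near the 11.4% of all genes called lower. Mki67, the proliferation marker, had 1929 and 1875 CPM in young KD and 2808 and 2100 in sick KD (0.36 ± 0.16, adjusted p = 0.15), and passed with GC and length trends removed (adjusted p = 0.042) and without sick KD 2 (0.56, adjusted p = 0.016). Top2a, Pcna and Rrm2 had -0.18 ± 0.13, -0.03 ± 0.12 and -0.22 ± 0.11. Rpa1, Uhrf1 and Dnmt1, of DNA binding and methylation at the fork, fell by 0.61, 0.82 and 0.48. Of 20 histone chaperones 0 rose and 5 fell by edgeR (0 higher at an unadjusted p under 0.05). The 5 are 25% of the list, beside 11.4% of all genes called lower, and DESeq2 called 0 higher and 7 lower. Among the 5 were Supt16 and Ssrp1, the subunits of FACT (-0.81 ± 0.11 and -0.66 ± 0.11), and Chaf1a of the chromatin assembly factor (-0.57 ± 0.12). Old KO marrow had 5 of the 49 S phase genes higher than sick KD and 1 lower by edgeR. For the 20 chaperones these counts were 5 and 0, beside 9.93% of all genes higher and 8.22% lower. The ratio of the members' sum to that of the S phase list was 1.35 to 1.55 in the 6 other libraries and 3.48 and 4.57 in sick KD.

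Other RNAs that are made without a poly(A) tail moved with the members. All 10 tested of 11 such listed RNAs rose from young to sick KD, with a median log2 fold change of 1.54, and all 10 were lower in old KO than in sick KD (median -1.69). Rmrp, the RNA of RNase MRP, had 2158 and 2431 CPM in young KD, 2275 and 1892 in young KO, 1803 and 1889 in old KO, and 5562 and 7669 in sick KD (1.52 ± 0.18). Rn7sk, which restrains the elongation factor P-TEFb, had 9337 and 9734 CPM in young KD, 10018 and 8148 in young KO, 7874 and 8834 in old KO, and 19505 and 28016 in sick KD (1.31 ± 0.19). Rpph1, the RNA of RNase P, rose by 1.34 ± 0.16, and Terc, the telomerase RNA, by 0.87 ± 0.15. In each of these the second sick KD library was the highest of all 8, as for the members' sum. By biotype, 16 of 17 tested snRNA genes, 54 of 74 snoRNA genes and 10 of 12 scaRNA genes rose by edgeR, and 0 fell. DESeq2 called 13, 40 and 10 of these higher and 0 lower. Over all genes edgeR called 9.45% higher between sick and young KD, and 8.22% lower in old KO than in sick KD. The same 2 sick KD libraries enter both comparisons.

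The ratio of the members' sum to that of the listed RNAs without a tail stayed between 0.918 and 1.20 in all 8 libraries: 1.08 and 0.918 in young KD, 0.980 and 1.15 in young KO, 1.20 and 1.12 in old KO, and 1.10 and 0.949 in sick KD. The sick KD values lay inside the range of the others. When the libraries were scaled on these RNAs in place of TMM, a choice made after the values were seen, 4 of 58 members were called between sick and young KD, all lower, and the members' median was -0.05, while the median of all genes moved to -1.30. Between old KO and sick KD 7 were called under that scaling, 6 higher and 1 lower, with medians of 0.30 for members and 1.5 for all genes. Under the same scaling 4 members were called higher in the interaction, where the medians were 0.17 for members and 1.42 for all genes. More histone mRNA in the cells and a larger share of RNA without a tail passing the selection cannot be told apart from these libraries.

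**Figure D5:**
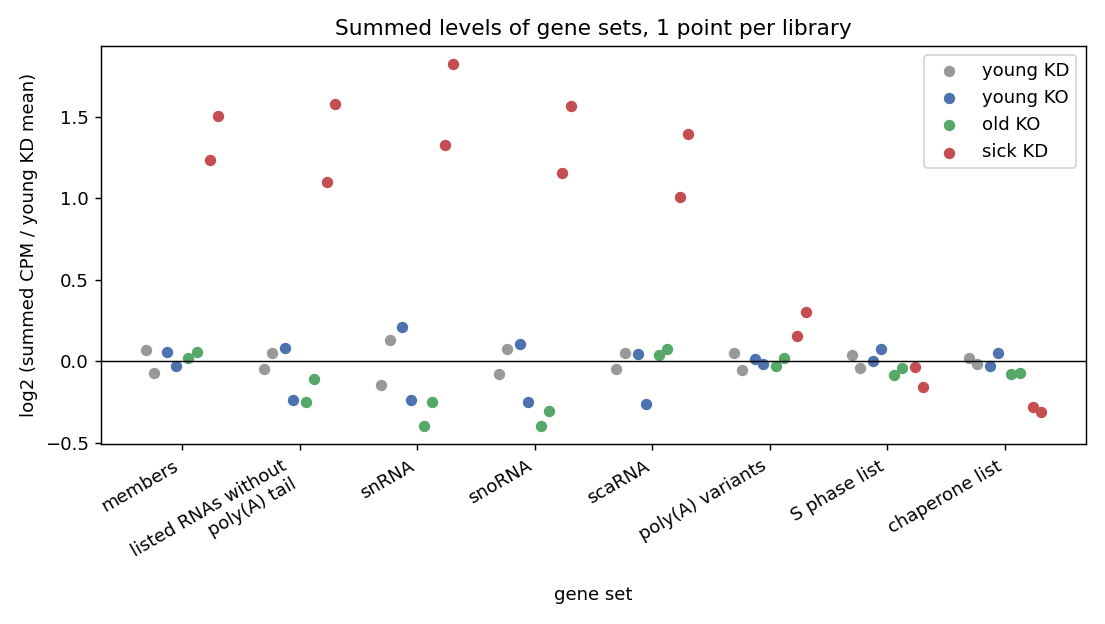
Log2 of the summed CPM of 8 gene sets over the young KD mean, 1 point per library. The sick KD points of the members, the RNAs without a poly(A) tail, snRNA, snoRNA and scaRNA lie at 1 or above, while those of the poly(A) variants lie slightly above the other groups, those of the S phase list near them and those of the chaperone list below.

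The sick KD libraries differed from the rest in several other measures. Alignments tallied as not unique made up 49.3% and 53.2% of all tallied alignments in sick KD and 42.2% to 44.7% elsewhere. Among uniquely placed reads, those that the counting assigned to no feature made up 42.0% and 38.8% in sick KD against 26.9% to 33.8%. Summed markers of granulocyte precursors (5 genes) were 6284 and 7039 CPM in sick KD against 4245 to 5494, with 4 of 5 higher than in young KD. Those of erythroblasts (9 genes) were 754.3 and 1027 CPM against 1420 to 4218, with 9 of 9 lower than in young KD (6 by DESeq2). B cell markers (9 genes, 9 lower in sick than in young KD and 8 lower in old than in young KO) stood at 29.4 and 88.9 CPM in sick KD, at 109.3 and 178.9 in old KO and at 559.7 to 946.2 in the young groups, and stroma markers at 22.1 and 24.4 against 99.6 to 200.9. Monocyte markers (5 genes, 1 called higher than in young KD) were 8729 and 9224 CPM in sick KD against 5936 to 8008. Neutrophil markers (5 genes, 0 called against young KD) were 3315 and 949.7 against 134.8 to 1034, so the second sick KD library lay within the others' range. Over all genes edgeR called 9.45% higher and 11.4% lower in sick than in young KD. In old against young KO it called 0.606% lower. In whole marrow, fewer cells of a type and less RNA per cell cannot be told apart, and the part of cell makeup in the histone difference was not tested.

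Members with less and those with more sequence of their own had similar medians. The share of a member's 50-base windows found in no other annotated gene ran from 0% for Hist2h2aa2 to 100% for Hist1h1b. Among tested members with under 25% of windows unique, 12 of 13 rose from young to sick KD with a median of 1.39, and among those with 25% or more 41 of 45 with a median of 1.28. The upper class also holds members that share most of their windows, such as Hist1h2bk with 25.8% unique. The split therefore does not single out members that can be counted alone. Members with a stem-loop and no AATAAA near the end rose in 27 of 27 cases (median 1.30), those with both in 7 of 10 (median 1.18), and those with no annotated stem-loop in 19 of 21 (median 1.32). Levels of different members are comparable only per length. Per kilobase of annotated exon Hist1h4f had a mean of 2200 CPM, Hist1h1b 2139, Hist1h4h 1536 and Hist1h2bb 1487, whereas Hist1h1d, whose annotated exons span 7425 bases, had 191.5 and Hist1h2ac 74.5 over 2482 bases. The order therefore depends on the annotated length, and on the shared reads that were not counted.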

How the data were processed

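Whole bone marrow of 8 mice, 2 per group, was sequenced from poly(A)-selected stranded mRNA libraries. The authors aligned reads to mm10/GRCm38 with TopHat2 2.0.10 and SAMtools and deposited raw counts per Ensembl gene from HTSeq; the strand setting, Ensembl release and read length are not given in the sources used here. HTSeq sets aside reads placed at more than 1 site, which lowers the counts of near-identical histone copies. Tallies of reads assigned to no feature or with no single place stayed out of library sizes and tests. Symbols, biotypes and transcripts came from GENCODE M21 (40340 of 41214 IDs matched). Each mouse is numbered alone in the labels, and replicate numbers here follow listing order. No libraries of a group were near-identical copies (chi-square per degree of freedom 23.5 to 38.8 over genes, 13.5 to 95.7 over members), so each counted as a sample.

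Counts were normalized by TMM and tested with edgeR 4.0.16 (R 4.3.3; quasi-likelihood, Benjamini-Hochberg over all genes, adjusted p under 0.05, genes kept by filterByExpr), each comparison on its own 4 libraries and the interaction on all 8. SE is the log2 fold change over the root of F. DESeq2 1.42.0 was an alternative. The tests were checked on simulated data with 200 genes changed 4-fold. Across the comparisons 169 to 196 of these were found, and 14 to 27 unchanged genes were called. In each comparison the unchanged genes were a larger share of the calls than the threshold of 0.05 aims at. The named genes were the 4 most abundant members per type, the most abundant per cluster, up to 5 called members per direction with the largest fold in each comparison, the poly(A) variants and set reference genes; others are marked. The members and gene lists were chosen with earlier results of these data known. Unique 50-base windows and stem-loops were found in M21 transcripts.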

Additional observations from a re-analysis of the deposited data

Results flagged for a closer look

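The difference between the old KO and sick KD groups differed from that between the young groups in 47 of 58 members, all lower, by the interaction test of edgeR. The members with the largest contrast were Hist1h1e (-1.62), Hist1h3g (-1.60), Hist4h4 (-1.60), Hist1h3i (-1.59) and Hist1h1d (-1.52, log2), and each kept its sign and its call in every other setting run on single genes. Scaling on RNAs made without a poly(A) tail was not run on single genes, and under it 0 members were called lower in this contrast and 4 higher. Illness, age and genotype are joined in that contrast and cannot be told apart.

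Alignments tallied as not unique, which enter no gene count, made up 49.3% of all tallied alignments in the first sick KD library and 53.2% in the second. The 6 other libraries had 42.2% to 44.7%. The tally is one of alignments, so it does not give a share of reads. Near-identical histone copies lose reads to this tally, and how much of it comes from histone reads was not tested. Groups of 2 mice are too small to test a single library as an outlier.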

How the results depend on the processing

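The counts of members called between old KO and sick KD (48 to 54) and between sick and young KD (51 to 54) stayed within 1.5 times of 49 and 53 under every other setting but 1. That setting, scaling on RNAs made without a poly(A) tail, left 7 in the first and turned the direction in the second, to 4 lower, and in the interaction, to 4 higher. It shifts all genes alike: the medians of all genes became -1.30 and 1.42 there, and those of members -0.05 and 0.17. Libraries scaled by totals alone moved the median of all genes to 0.11 (old KO against sick KD) and -0.13 (sick against young KD), and removing GC and length trends to -0.11 and 0.14. With no filter on low counts, old KO against sick KD had 53 members called lower and 1 higher. The interaction had 52 lower and 1 higher without that filter. In the young groups 2 members were called by DESeq2 and 2 with no filter on low counts, where Hist1h4n joined Hist1h4m, against 0 with all 8 libraries in 1 fit, 0 with the pair of genes summed as 1 feature and 0 with any mouse left out (range 0 to 0). Between old and young KO the count was 0 to 1 with a mouse left out. Hist1h4m was the gene called, higher (1.04) without old KO 1 and lower (-6.57) without old KO 2. The interaction gave 24 to 46 with a mouse left out. The summed CPM of all members in a group is then that of its other mouse, 14554 to 16052 in young KD, 15005 to 15904 in young KO, 35987 to 43465 in sick KD and 15500 to 15892 in old KO, and with library totals, or TMM factors without histone, small RNA and mitochondrial genes, it moved by less than 1 SD. H2afx lost its call between old KO and sick KD without sick KD 2, old KO 1 or old KO 2. The scaling on RNAs without a tail and the summed pair were chosen after seeing the data. No paired analysis was possible because the labels number each mouse alone and groups share no replicate numbers. With 2 mice a group the spread is poorly known, near-identical copies lose multiply placed reads, and poly(A) selection recovers these RNAs only in part.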
